A study of Mus musculus with 6 samples.

Results

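Chitinase-like and mucosal inflammation genes were described across olfactory epithelium samples of OMP-GFP mice. The group holds 8 genes: the chitinase-like genes Chil1, Chil3 and Chil4, the active chitinase gene Chia1, the lectin gene Reg3g, the serpin gene Serpina3n, the resistin-like gene Retnla and the chloride channel regulator gene Clca1. These genes were chosen by signals of the same 6 arrays, among them signals on which 1 array stood alone, so their values and group differences are given as a description with no test. The platform annotation assigned them 9 probe sets of the 45101 on the array, each naming 1 of these genes alone, and 18194 genes were named in all. Of the 9 probe sets, 5 passed the filter on low signals, 1 each for Chil1, Chil4, Chia1, Reg3g and Serpina3n. The probe sets of Chil3, Retnla and Clca1 lay below it, so their signals are given without a place in any fit.

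Total RNA was taken from the olfactory epithelium, the nasal lining that houses the odour-sensing neurons, and hybridised to Affymetrix mouse whole-genome arrays. There were 3 arrays from mice homozygous for OMP-GFP and 3 from heterozygous mice, all reared under normal laboratory conditions. As background knowledge, the OMP-GFP allele puts green fluorescent protein in place of the olfactory marker protein coding sequence. Every sample therefore carries at least 1 GFP allele, there was no wild-type group, and the labels give no age, sex or number of animals per RNA sample. Because nothing says that samples of a group came from separate animals, p-values measure only the spread between these samples, which may be technical in part. Number of GFP copies and loss of olfactory marker protein cannot be told apart between the groups.

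Chitinases cut chitin, the polymer of fungal walls and arthropod shells, and the chitinase-like proteins bind such sugars without cutting them. In mice the secreted proteins of Chil3 (Ym1) and Chil4 (Ym2) are best known from macrophages and mucosal epithelium in allergic or parasitic inflammation, where interleukin-4 and interleukin-13 act through the transcription factor Stat6 to raise them together with Retnla, Clca1 and Chia1. Reg3g and Serpina3n are better known from epithelial and acute phase responses to interleukin-17, interleukin-22 and interleukin-6.

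In the order of protein-coding genes of GRCm38.p6, Chia1, Chil3 and Chil4 follow each other on chromosome 3, with Chil5 before Chia1 and Chil6 after Chil4. Chil1 lies on chromosome 1 next to the chitinase gene Chit1, and Retnla lies between its relatives Retnlb and Retnlg. The start regions of 4 genes are shown because the signals below turn on them. Chil3 and Chil4 are close copies, of which only Chil4 had an array standing alone at its own probe set. Chil1 and Serpina3n are the pair that was high on the same array. The sequences, from RefSeq on GRCm38.p6, run from 250 bases before to 20 bases after the annotated start, 5′ to 3′ on the strand of the gene. Chil3 lies at chr3:106167545-106167814 and Chil4 at chr3:106219460-106219729, both on the minus strand. Chil1 lies at chr1:134181906-134182175 and Serpina3n at chr12:104406458-104406727, both on the plus strand. Capitals mark the matches to TATAAA and TTCNNNGAA, the second being the palindrome bound by several STAT factors.
Chil3: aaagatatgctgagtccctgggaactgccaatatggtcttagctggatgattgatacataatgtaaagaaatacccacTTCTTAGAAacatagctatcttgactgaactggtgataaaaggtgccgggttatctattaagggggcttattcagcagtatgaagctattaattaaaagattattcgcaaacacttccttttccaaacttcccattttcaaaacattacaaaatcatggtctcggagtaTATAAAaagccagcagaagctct
Chil4: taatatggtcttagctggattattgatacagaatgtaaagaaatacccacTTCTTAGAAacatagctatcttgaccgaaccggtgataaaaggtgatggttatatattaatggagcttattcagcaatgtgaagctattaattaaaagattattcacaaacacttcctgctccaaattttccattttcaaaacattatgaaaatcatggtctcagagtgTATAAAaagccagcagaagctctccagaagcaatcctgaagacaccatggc
Chil1: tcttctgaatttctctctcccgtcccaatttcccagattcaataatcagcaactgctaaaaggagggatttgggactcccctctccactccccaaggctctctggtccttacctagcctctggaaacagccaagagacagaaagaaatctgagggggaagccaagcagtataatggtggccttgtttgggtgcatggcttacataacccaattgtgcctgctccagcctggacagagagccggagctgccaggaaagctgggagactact
Serpina3n: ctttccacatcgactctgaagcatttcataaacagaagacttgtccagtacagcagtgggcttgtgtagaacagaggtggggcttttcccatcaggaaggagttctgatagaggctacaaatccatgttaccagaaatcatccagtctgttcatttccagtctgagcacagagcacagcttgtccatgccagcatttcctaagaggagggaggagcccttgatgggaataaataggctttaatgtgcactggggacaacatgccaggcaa

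The start regions of Chil3 and Chil4 matched at 221 of 241 aligned bases, or 91.7%. Both hold the same TTCNNNGAA match, beginning 172 bases before the annotated start of Chil3 and 200 before that of Chil4, and 1 TATAAA match, beginning 3 and 31 bases before the start. The start regions of Chil1 and Serpina3n hold neither. Searched on both strands, TATAAA occurs in 12.9% and TTCNNNGAA in 7.58% of 32851 RefSeq start regions of the same 270 bases. Of the 7 genes with an entry in the table, TATAAA was found in Chil3, Chil4, Chia1, Reg3g and Retnla. The wider palindrome that Stat6 prefers, TTC and GAA with 4 bases of any kind between, was found in Retnla alone, 145 bases before the start, and occurs in 6.3% of the regions. A match is a string of letters and not a shown binding site.

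The labels and the tissue were checked first. Omp, the targeted gene, has a probe set, 1422199_at, that read 5.7, 8.8 and 31.3 in homozygous 1, 2 and 3. Of the heterozygous arrays, the library labelled heterozygous 1 read 26.3, while 4664 and 9143 were read in numbers 2 and 3. The second Omp probe set, 1422200_at, read 7919 to 8774 in homozygous and 7968 to 8709 in heterozygous arrays, with a log2 difference of -0.0093, and did not separate the groups. At the first probe set the library labelled heterozygous 1 therefore lay among the homozygous arrays, and whether either probe set falls within the replaced part of Omp is not given in the sources used here, so each group difference below of the 8 genes is also given without that library where this moves it by over 1.5 times. All 6 measured markers of mature olfactory neurons and all 8 of sustentacular cells, the supporting cells of this epithelium, passed the filter on mean signal, with the neuronal gene Stoml3 at 15125 to 20031 and the sustentacular gene Cyp2g1 at 17796 to 18562. Median signals per array ran from 147.9 to 163.7. With 3 arrays a group, precision is limited by their number.

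**Figure D1:**
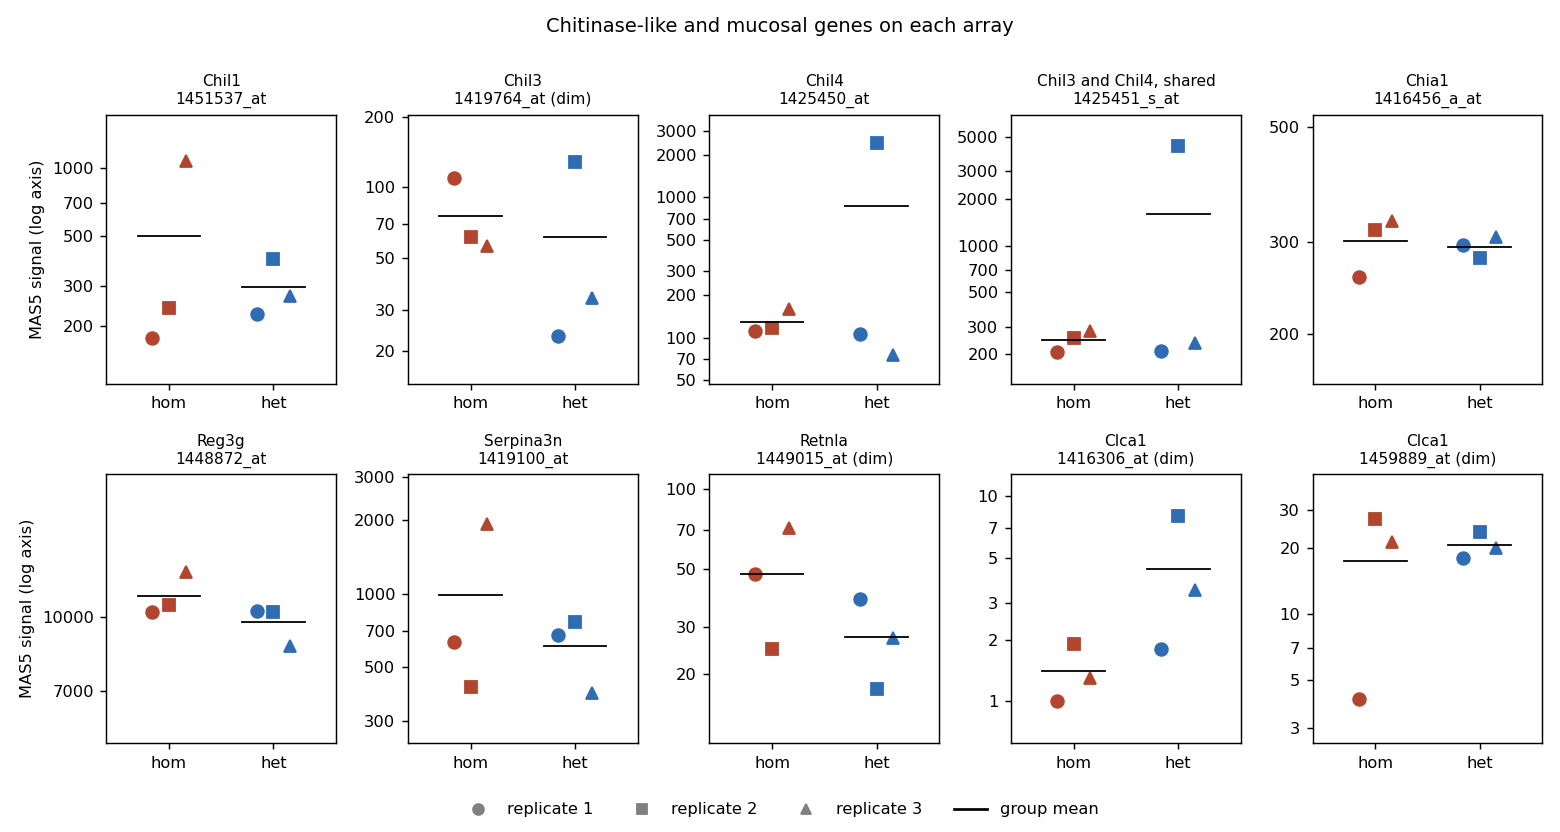
MAS5 signal (log axis) of the 9 probe sets of the 8 genes and of the probe set shared by Chil3 and Chil4, per array, homozygous in red and heterozygous in blue; symbols give the replicate number, black lines the group mean, and "dim" marks probe sets below the filter. Homozygous 3 stands above the other 5 arrays for Chil1 and Serpina3n, and heterozygous 2 for Chil4 and the shared probe set, where it reads 2445 and 4347.

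Chil4, the gene of the chitinase-like lectin Ym2, was high on 1 heterozygous array and low on every other array. Its probe set 1425450_at read 112, 118 and 160 in homozygous 1, 2 and 3. The heterozygous arrays read 106, 2445 and 74.8, in the same order of replicate numbers. Heterozygous 2 lay 15.3-fold above the next highest array, homozygous 3, while the other 5 arrays spanned 74.8 to 160. The homozygous mean was 130 ± 26.2 and the heterozygous mean 875 ± 1359 (SD, n = 3 each), and the arrays of the groups overlapped. The difference, homozygous minus heterozygous, was -1.04 ± 1.43 (SE) on the log2(signal + 38.8) scale used for all differences here. Without heterozygous 2 it turned to 0.38 ± 0.21, so the sign for Chil4 rests on that array. Leaving out the library labelled heterozygous 1 gave -1.67, and leaving out heterozygous 3 gave -1.84.

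A second probe set, 1425451_s_at, is annotated to both Chil3 and Chil4 and was therefore not assigned to either gene. It read 207, 256 and 283 in the homozygous arrays. In the heterozygous arrays it read 212, 4347 and 236. Heterozygous 2 again stood alone, 15.4-fold above homozygous 3, which was again the next highest. Leaving out heterozygous 2 moved the difference from -1.23 ± 1.36 to 0.12 ± 0.15 (SE), and leaving out the library labelled heterozygous 1 moved it to -1.94.

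Chil3, which encodes Ym1, had no array standing alone at its own probe set. 1419764_at read 109, 61.3 and 56.5 in homozygous arrays and 23.3, 128 and 33.9 in heterozygous arrays, all below the filter. Heterozygous 2 was the highest array here too, well above the other heterozygous arrays, but homozygous 1 followed at a ratio of 1.17. The difference was 0.30 ± 0.49 (SE), with 0.03 when the library labelled heterozygous 1 was left out and 0.74 when heterozygous 2 was. Leaving out homozygous 1 gave 0.10, and leaving out heterozygous 3 gave 0.14. Genes with copies as close as Chil3 and Chil4 can share hybridisation, so a signal at any of these 3 probe sets may hold transcript of the other gene, which was not tested.

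Chil1, the gene of the chitinase-like protein BRP-39, was high on 1 homozygous array. Its probe set 1451537_at read 177, 241 and 1079 in homozygous 1, 2 and 3. It read 225, 396 and 271 in heterozygous 1, 2 and 3. Homozygous 3 was thus 2.72-fold above the next highest array, heterozygous 2, and the 2 other homozygous arrays were among the 3 lowest of the 6. Group means were 499 ± 503 and 297 ± 88.8 (SD, n = 3 each), and the groups overlapped. The log2 difference of 0.31 ± 0.77 (SE) became -0.42 ± 0.31 when homozygous 3 was left out, and 0.15 when the library labelled heterozygous 1 was. Without homozygous 1, homozygous 2 or heterozygous 2 it was 0.77, 0.58 and 0.51.

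Serpina3n, which encodes a secreted inhibitor of serine proteases and is a common marker of acute phase and glial reactions, was high on the same array as Chil1. 1419100_at read 631, 416 and 1926 in homozygous arrays and 678, 762 and 390 in heterozygous arrays. Homozygous 3 was 2.53-fold above heterozygous 2, the next highest. The mean of 991 ± 817 in homozygous arrays therefore came with an SD larger than the heterozygous mean of 610 ± 195 (SD, n = 3 each). The log2 difference of 0.43 ± 0.69 (SE) turned to -0.18 ± 0.41 without homozygous 3, and it was 0.15 without heterozygous 3 and 0.87 ± 0.68 without homozygous 2.

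Reg3g, which encodes a secreted C-type lectin that kills Gram-positive bacteria, was bright on all arrays and varied little. 1448872_at read 10220, 10578 and 12434 in homozygous arrays and 10301, 10216 and 8687 in heterozygous arrays. Homozygous 3 was the highest and heterozygous 3 the lowest, with 1.43-fold between them, and the other 4 arrays lay close together and mixed by genotype. The log2 difference was 0.18 ± 0.12 (SE), and it was 0.099 without homozygous 3 and 0.11 without heterozygous 3. The sign held with each of the 6 arrays left out in turn, which never removes homozygous 3 and heterozygous 3 together. With a common median the difference was 0.13 ± 0.16 (SE).

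Chia1, the gene of acidic mammalian chitinase, varied little as well. Probe set 1416456_a_at read 257, 317 and 330 in homozygous arrays and 297, 280 and 307 in heterozygous arrays, with 1.28-fold between the highest and the lowest. The log2 difference was 0.02 ± 0.10 (SE), and leaving out 1 array gave -0.04 to 0.12, the highest without homozygous 1 and values below 0 without homozygous 2, homozygous 3 or heterozygous 2. It was -0.0072 after quantile normalization, and with a common median, which moved the median of all genes to -0.051, it was -0.023. No direction is given for Chia1.

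Retnla and Clca1, known targets of interleukin-13, were dim on all arrays. Retnla, whose product RELM-alpha is secreted by alternatively activated macrophages and airway epithelium, read 47.8, 24.9 and 71.2 in homozygous and 38.3, 17.5 and 27.3 in heterozygous arrays at 1449015_at. Homozygous 3 was the highest and heterozygous 2 the lowest. Clca1, the goblet cell gene once called gob-5, read between 1 and 8 on the 6 arrays at 1416306_at and between 4.1 and 27.2 at 1459889_at. At the first of these heterozygous 2 was highest, at 8, and heterozygous 3 next, at 3.5. At such signals nothing is concluded from these orders of arrays. The log2 differences of Retnla (0.36 ± 0.26, SE) and Clca1 (-0.10 at both probe sets) depend on the offset. Retnla gave 0.17 without homozygous 3 and 0.57 without homozygous 2.

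The groups overlapped at each of the 9 probe sets, beside 10.9% of the 22514 probe sets tested at which they did not. No probe set passed an adjusted p of 0.05 in limma, so the background of calls is 0% of 22514 probe sets and 0% of 11426 genes, with 1291 probe sets and 590 genes at an unadjusted p under 0.05. Nothing is read from these shares about the 8 genes, which were chosen on the same arrays.

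**Figure D2:**
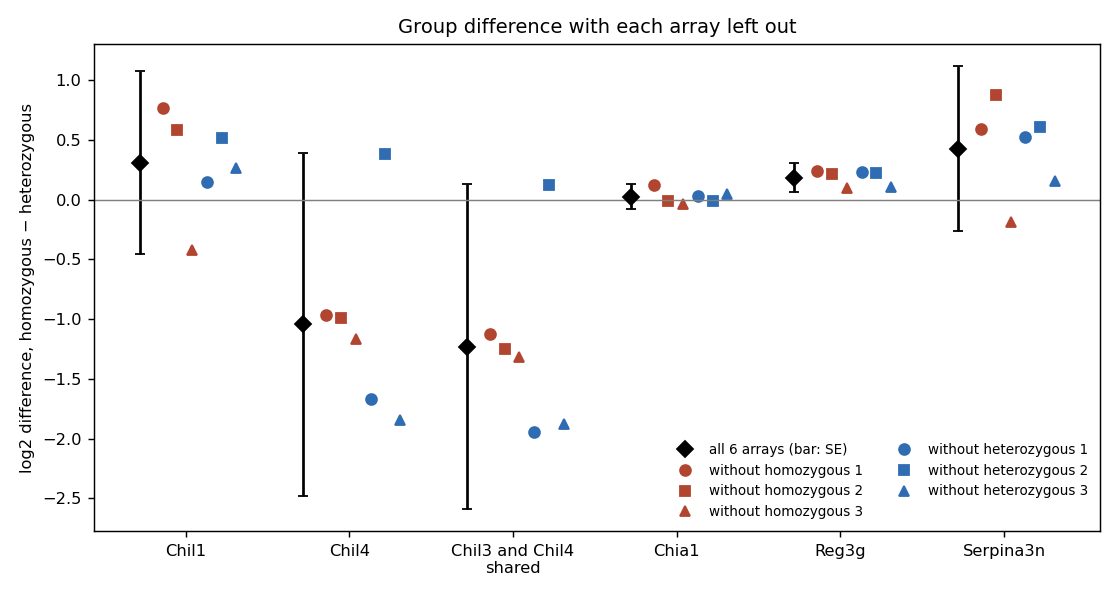
Log2 difference, homozygous minus heterozygous, of the probe sets that passed the filter: black diamonds use all 6 arrays with the SE as a bar, and coloured symbols leave out 1 array each. Without homozygous 3 the value crosses 0 for Chil1 and Serpina3n, without heterozygous 2 it does so for Chil4 and the shared probe set, and for Reg3g all values stay above 0.

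An array was taken to stand alone at a gene where it lay at least 1 on the log2 scale, or 2-fold, above each of the other 5. By that measure homozygous 3 stood alone at 2 of 11426 genes, or 0.0175%, and these were Chil1 and Serpina3n. Heterozygous 2 stood alone at 1 gene, or 0.00875%, and this was Chil4. The gaps were 1.36 for Chil1, 1.30 for Serpina3n and 3.65 for Chil4. Just outside the threshold in homozygous 3 were Lcn2 and Car6, with gaps of 0.90 and 0.89, and in heterozygous 2 Ptgds, with 0.73. These counts describe how the genes were chosen and support nothing further. Of the 5 probe sets that passed the filter, 3 also stood alone with a larger offset and after quantile normalization. A gap of 1.5-fold gave 3 too, but this looser limit could not lose any. The other arrays stood alone high at 0 to 10 genes, most in heterozygous 3.

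**Figure D3:**
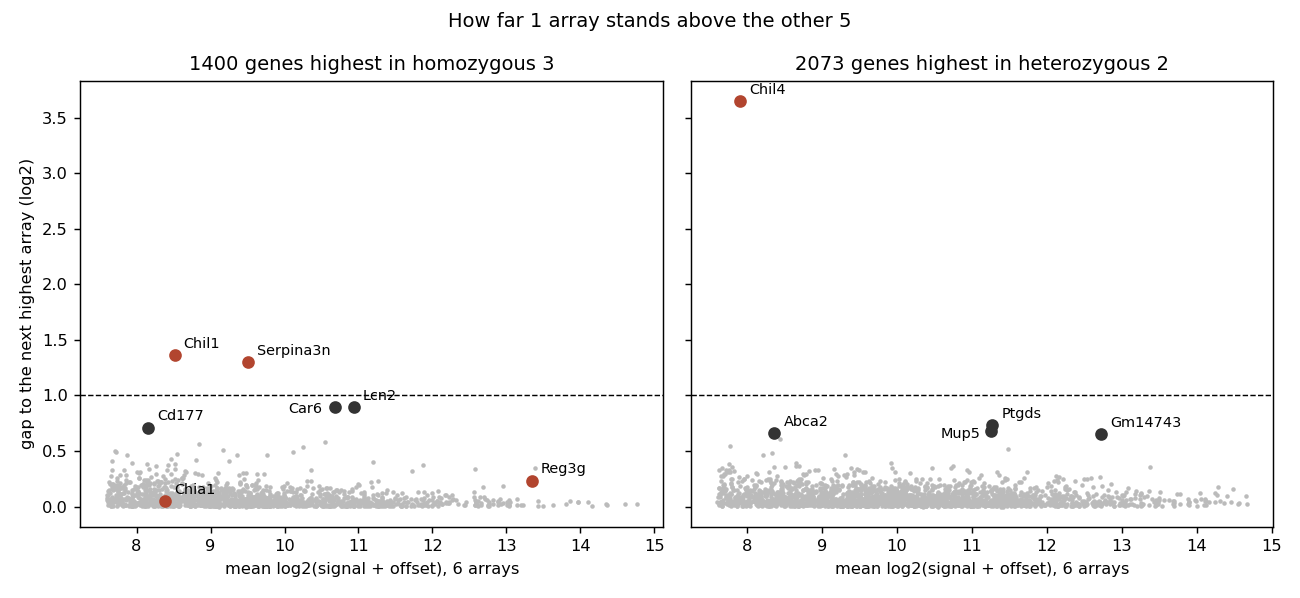
Gap between the highest and the next highest array (log2) against mean log2 signal over 6 arrays, for genes highest in homozygous 3 (left, 1400 genes) or in heterozygous 2 (right, 2073 genes); red points are genes of the group described, black points the other genes of largest gap, and the dashed line marks a gap of 1. Chil1 and Serpina3n lie above the line on the left, Chil4 alone on the right with a gap of 3.65.

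Homozygous 3 had the highest signal of the 6 arrays for Chil1, Chia1, Reg3g and Serpina3n, and heterozygous 2 for Chil4. Chil4 passed the filter only through heterozygous 2: without it the mean log2 value of Chil4 was 7.23, below the level of 7.61 needed, so its place among the tested genes was fixed by that array. Over all genes tested the shares were 12.3% for homozygous 3 and 18.1% for heterozygous 2. Against the mean of the other homozygous arrays, homozygous 3 was higher by 2.18 on the log2 scale for Chil1, 1.83 for Serpina3n, 0.37 for Chil4, 0.26 for Reg3g and 0.18 for Chia1. Against the other heterozygous arrays, heterozygous 2 was higher by 4.28 for Chil4, 0.61 for Chil1, 0.53 for Serpina3n and 0.11 for Reg3g, and Chia1 differed by -0.096. Chil1 and Serpina3n therefore lay higher on both arrays within their genotype, by different amounts, and Chil4 did so chiefly on heterozygous 2.

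Genes with the most similar profile over the 6 arrays were found for the members whose log2 signals ranged over at least 1, by the root mean square difference of mean-centred log2 signals. Nearest to Chil1 were Lcn2, the gene of the siderophore-binding lipocalin-2, at a difference of 0.29, Car6, a secreted carbonic anhydrase, at 0.36, and Serpina3n at 0.41. Lcn2 read 1484, 1456 and 4932 in homozygous arrays and 1546, 2632 and 1179 in heterozygous arrays. It was also nearest to Serpina3n, at 0.24, before Cd177, a neutrophil surface glycoprotein gene, at 0.31 and Pigr, the receptor that carries dimeric IgA across epithelia, at 0.37. Pigr read 584, 490 and 1264 in homozygous arrays and 405, 904 and 418 in heterozygous arrays. Chil1, Serpina3n, Lcn2 and Pigr had homozygous 3 highest and heterozygous 2 next, whereas Car6 had heterozygous 3 next, at 1985. Lcn2 and Pigr were picked for their likeness to Chil1 or Serpina3n, so the shared order supports nothing further.

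No gene followed Chil4 closely. The nearest, Gm14743, Ptgds and Mup5, were at 1.17, 1.20 and 1.22, and none had a gap near that of Chil4. Ptgds, the lipocalin-type prostaglandin D synthase gene, read 2299, 2156 and 2415 in homozygous and 1907, 4044 and 2190 in heterozygous arrays, so heterozygous 2 was highest but by far less. Mup5, a major urinary protein gene, read 6894 in heterozygous 2 and 518 to 4281 elsewhere. Gm14743 was also the nearest to Chil3, at 0.26, followed by Smoc1 at 0.28 and Rab3il1 at 0.29.

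The close relatives of these genes were largely dim. Of 6 other glycosyl hydrolase 18 genes, the family of the chitinases, 4 were on the array under a name of their own and 3 were tested, with 0 higher and 3 lower in homozygous arrays and 0 past the threshold (lowest adjusted p in limma 0.977). Chid1 differed by -0.08, Ovgp1, the oviductal glycoprotein gene, by -0.06, and the chitobiase gene Ctbs by -0.04 on the log2 scale. Without heterozygous 2, where Chid1 and Ctbs lay 0.33 and 0.27 above the other heterozygous arrays, 2 of the 3 were higher and the median of -0.06 became 0.04. Chit1, the other active chitinase, read 5.1 to 33.8 and was not tested. The 6 other Reg lectins, the 6 other calcium-activated chloride channel regulators, the 2 measured resistin relatives of Retnla and the 4 measured serpins near Serpina3n all lay below the filter, with summed signals of at most 291, 413, 99.7 and 129 on any array. Of the relatives nearest to Serpina3n, Serpina3b, Serpina3c, Serpina3f, Serpina3g, Serpina3h, Serpina3j, Serpina3k and Serpina3m had no probe set naming them alone.

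The first wider list held genes of the type 2 pathway, which raises Chil3, Chil4, Retnla and Clca1. Of 38 listed, 36 had a probe set and 14 passed the filter, 8 higher and 6 lower in homozygous arrays, and 0 passed the limma threshold (lowest adjusted p 0.951). The median log2 difference was 0.08, beside -0.00041 over all genes tested. The cytokine genes Il4, Il5, Il9, Il13, Il25 and Tslp read at most 57.6 on any array. Among the cytokines Il33 alone passed the filter, at 2358 to 2987. Alox15, the lipoxygenase gene that interleukin-4 raises in macrophages and epithelium, read 762, 814 and 697 in homozygous and 1011, 954 and 829 in heterozygous arrays. The groups did not overlap there, as at 10.9% of all probe sets tested. Its log2 difference was -0.28, with a limma adjusted p of 0.951. The macrophage mannose receptor gene Mrc1 differed by 0.25 (limma adjusted p 0.951), and the bright members Postn and Agr2 by 0.14 and 0.11. In heterozygous 2 this list lay at a median of 0.07 above the other heterozygous arrays, beside 0.01 for all genes, with 9 of 14 above, and 1 of the 14 was highest there of all 6 arrays. That gene was Fcgbp, at 240 in heterozygous 2 and 77.4 to 191 elsewhere. The largest deviations of the list in heterozygous 2 were 0.85 for Fcgbp, 0.41 for Spdef and 0.32 for Il13ra1. The lowest was -0.26, for Dclk1. Arg1, a marker of alternatively activated macrophages named outside the rule, lay below the filter. It read 45.5 in heterozygous 2 and 11.6 to 55.6 elsewhere.

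The interleukin-17, interleukin-22 and interleukin-6 pathways and the acute phase made up the second list. Of 44 genes listed, 39 had a probe set and 20 passed the filter. In homozygous 3, 16 of the 20 lay above the mean of the other homozygous arrays, with a median of 0.16 on the log2 scale, beside 49.4% of all genes and a median of -0.0026. Homozygous 3 was the highest of the 6 arrays for 10 of the 20, beside 12.3% of all genes. This is a description of 1 array, and Lcn2 and Pigr, among the genes nearest to Chil1 or Serpina3n, are in the list. The list and the array were chosen with earlier results of these data known, so these shares support nothing further. In heterozygous 2, 14 of 20 lay above the other heterozygous arrays, with a median of 0.11.

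Between the groups, 15 of these 20 were higher and 5 lower in homozygous arrays, with a median log2 difference of 0.18 and 0 past the limma threshold (lowest adjusted p 0.951). The median was 0.011 without homozygous 3 and 0.096 without heterozygous 3. With arrays set to a common median, a scaling that shifts genes at large, 12 of 20 (60%) were higher, beside 32% of all genes there and 49.8% without it. Cxcl5, a chemokine for neutrophils, read 452, 359 and 573 in homozygous and 306, 341 and 238 in heterozygous arrays, with a limma adjusted p of 0.951. S100a9, a calprotectin subunit of neutrophils, differed by 0.53 with the same adjusted p. The bright members Stat3, the transcription factor of interleukin-6 and interleukin-22 signals, and Timp1 differed by -0.0052 and 0.03. Named after their values were seen, Saa3, an acute phase gene below the filter, read 309 in homozygous 3 and 17 to 80.1 elsewhere, and Lbp, which encodes the endotoxin-binding protein, read 1825 in homozygous 3 and 847 to 1249 elsewhere. Other genes of the list ran otherwise. Saa1, also below the filter, read 40.7 in homozygous 3 and 1.9 to 60.4 elsewhere. Il17ra read 272 in homozygous 3 and 313 to 377 elsewhere.

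**Figure D4:**
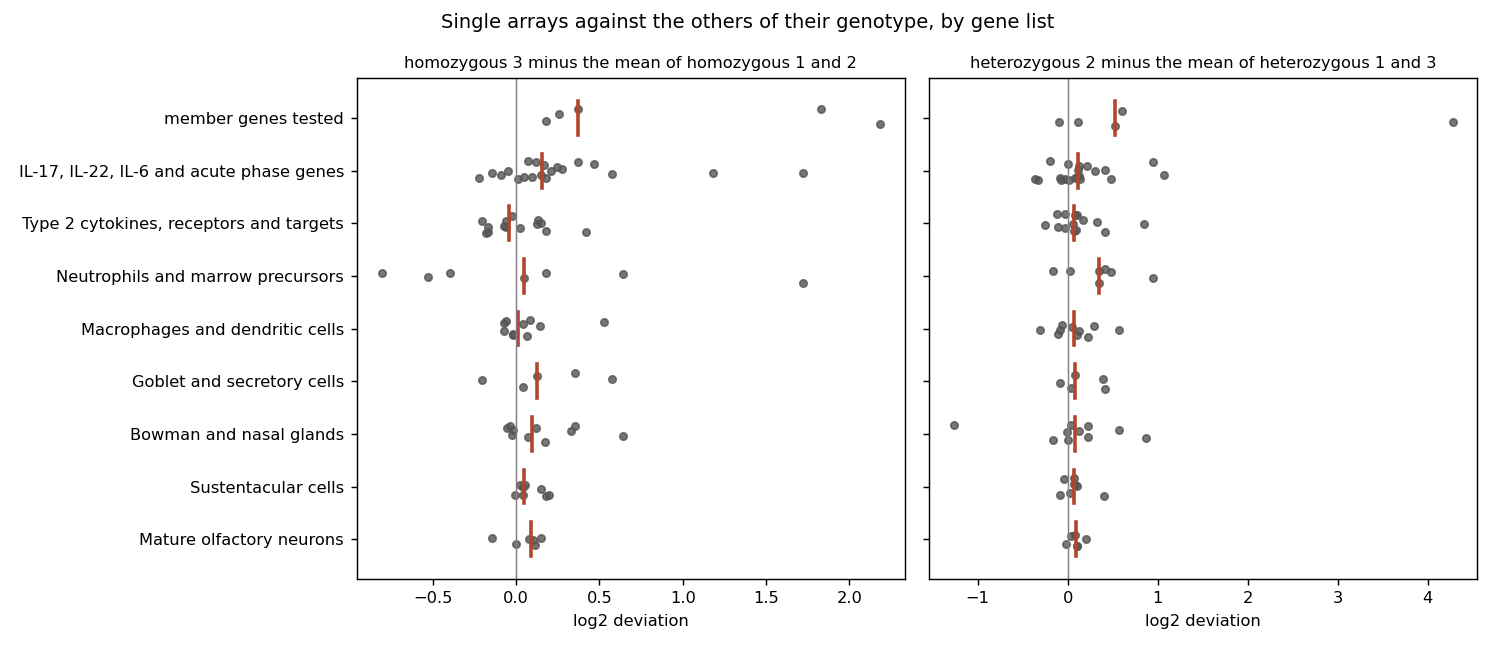
Log2 deviation of homozygous 3 from the mean of the other homozygous arrays (left) and of heterozygous 2 from the mean of the other heterozygous arrays (right), for the tested genes of each list; points are genes and red bars list medians. The acute phase list lies mostly to the right of 0 in homozygous 3 (median 0.16) while the type 2 list straddles 0 (median -0.04), and Chil4 at 4.28 lies far to the right in heterozygous 2.

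Markers of the cells that can make these proteins were set beside the 2 arrays. In bulk tissue fewer cells of a type and less RNA per cell cannot be told apart. For macrophages and dendritic cells 12 of 12 markers were measured, with summed signals of 8924 to 9828 in homozygous and 7948 to 8840 in heterozygous arrays. All homozygous sums were higher, but the closest, 8924 and 8840, were nearly equal. Of these markers 10 passed the filter, 10 higher and 0 lower in homozygous arrays, beside 49.8% of all genes higher. Their median log2 difference was 0.20, with 0 past the limma threshold (lowest adjusted p 0.951). Csf1r, the brightest marker, carried much of each sum and differed by 0.05, the least of the 10. Ptprc differed most, by 0.31. Among single probe sets tested the groups did not overlap at 10.9%. The median of the macrophage markers in homozygous 3 was 0.01 above the other homozygous arrays. In heterozygous 2 it was 0.08 above the other heterozygous arrays. For neutrophils and marrow precursors 11 of 12 were measured, with sums of 10386 to 18238 in homozygous and 10856 to 12704 in heterozygous arrays. Of these 7 passed the filter, 7 higher and 0 lower in homozygous arrays, with 0 past the limma threshold (lowest adjusted p 0.951). Their median log2 difference was 0.43, and it was 0.17 without homozygous 1. Homozygous 3 had the highest neutrophil sum, with Lcn2 and Ltf, which glands also secrete, 1.72 and 0.64 above the other homozygous arrays, and S100a9 and S100a8 0.18 and 0.05 above. The granule genes Ngp and Camp were highest in homozygous 1, at 644 and 340, and in homozygous 3 read 227 and 156, within the range of the heterozygous arrays (202 to 285 and 92.5 to 158). In homozygous 3, 4 of the 7 tested neutrophil markers lay above the other homozygous arrays, with a median of 0.05. In heterozygous 2, 6 of the 7 lay above the other heterozygous arrays, with a median of 0.34. There Lcn2 lay 0.94 above, S100a9 0.48, S100a8 0.42, and Ngp and Camp 0.34 each, while Ltf lay at -0.17. Eosinophil markers were measured for 4 of 7, all below the filter, with sums of 136 to 326 in homozygous and 130 to 178 in heterozygous arrays. Of 9 mast cell and basophil markers Kit alone passed the filter, and the sums were 672 to 752 and 693 to 780. No marker read 0 on any array.

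Secretory cells were compared in the same way. For goblet and secretory cells 8 of 8 markers were measured, with sums of 8669 to 10361 in homozygous and 8022 to 9252 in heterozygous arrays, and 4 of the 5 that passed the filter were above the other homozygous arrays in homozygous 3. The trefoil factor gene Tff2 lay 0.58 higher, the gel mucin gene Muc5b 0.35, Agr2 0.13 and Muc2 0.04, while the goblet cell transcription factor gene Spdef lay at -0.21. In heterozygous 2, 4 of the 5 likewise lay above the other heterozygous arrays. There Spdef lay 0.41 higher, Tff2 0.40, Agr2 0.08 and Muc5b 0.04, while Muc2 lay at -0.09. Muc5ac, the mucin that goblet cells make together with Clca1, lay below the filter. It read 88.3, 19.7 and 190 in homozygous and 115, 20.5 and 106 in heterozygous arrays, so homozygous 2 was as low as heterozygous 2. For Bowman and nasal glands 10 of 11 were measured, with sums of 112840 to 123320 and 104910 to 118760. A few bright genes carry these sums and they did not run alike: in heterozygous 2 the odorant-binding protein gene Obp1a lay 0.87 above the other heterozygous arrays, and the lipocalin gene Lcn3 read 2776 beside 6497 to 7428 elsewhere. The part of gland, goblet or immune cell content in the signals of Chil1, Serpina3n and Chil4 was not tested.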

How the data were processed

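Each deposited table holds 1 intensity per probe set, a linear MAS5 signal by the submitters' processing notes, with the version, settings and genome build of MAS5 not given in the sources used here. Every array had a 2% trimmed mean of 499.9, and no further scaling was applied. Genes were named from the platform annotation, with 34958 probe sets of 1 gene, 932 of several genes and 9211 without a gene. Signals were taken as log2(signal + 38.8), where the offset is the pooled 25th percentile. Probe sets whose mean log2 value reached the median were tested, without 64 controls, by limma 3.58.1 in R 4.3.3 (lmFit, eBayes with intensity trend, Benjamini-Hochberg at 0.05, 4 residual degrees of freedom), which was also checked on simulated data. A gene was represented by its brightest probe set. SEs of member differences come from the linear fit before moderation. Detection calls were not used.

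The members and lists were chosen with earlier results of these data known. Named were all members, the 3 nearest profiles per member, and from the glycosyl hydrolase, type 2 and acute phase lists the 2 genes of lowest p and the 2 brightest. Of the fixed marker lists, ciliated, basal, immature neuronal, glial, lymphoid, red cell and bone markers had 0 members past the threshold and are not described further. Alternatives were other offsets, scalings, filters, variance models, blocking on replicate number, leaving out each array, and averaging a gene's probe sets.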

Additional observations from a re-analysis of the deposited data

How the results depend on the processing

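No list gene passed the limma threshold under any of the 15 alternatives tried. Over all probe sets the count of 0 became 1 with the pooled-median offset of 156.6, and ranged from 0 to 25 with 1 array left out, the 25 without the library labelled heterozygous 1. With the replicate block the count was 0 as well; same-numbered arrays of the groups correlated at 0.02, -0.12 and -0.05 in their deviations, so the numbers were not taken to pair the samples. Of 110 values of the 9 member probe sets and the shared probe set under alternatives, 10 changed sign, 8 of them with 1 array left out: Chil1 and Serpina3n without homozygous 3, Chil4 and the shared probe set without heterozygous 2, and Chia1 and Clca1 near 0. With no offset Retnla differed by 0.74 and Clca1 by -1.45 and -0.62, at signals where the log scale is steep. With dim probe sets, signal over background limits what can be read for Chil3, Retnla and Clca1.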

Other observations

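Other genes set homozygous 3 and heterozygous 2 apart, chosen here after their values were seen. The probe set 1450618_a_at, annotated to both Sprr2a1 and Sprr2a2, which encode small proline-rich proteins of stressed epithelium, read 1994 in homozygous 3, 851 in heterozygous 2 and 182 to 291 on the other 4 arrays. Among probe sets that passed the filter it was, besides those of Chil1 and Serpina3n, the only one at which homozygous 3 stood alone by 2-fold or more. Cd177 read 482 in homozygous 3, 279 in heterozygous 2 and 173 to 234 elsewhere. With Chil1, Serpina3n, Lcn2 and Pigr these had homozygous 3 highest and heterozygous 2 second. Cd177, Lcn2 and Pigr had been picked for their likeness to Chil1 or Serpina3n, so this order supports nothing further. Car6 did not, since heterozygous 3 was second there, at 1985 beside 3716 in homozygous 3.

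The genes of largest gap in heterozygous 2 included others besides Chil4. Egf, the epidermal growth factor gene, read 506 in heterozygous 2 and 217 to 318 elsewhere. Odam, which encodes a secreted odontogenic and epithelial protein, read 4794 and 1978 to 3335. Rnase1, a secreted ribonuclease gene, read 292 and 127 to 189. The sodium channel subunit gene Scnn1a read 414 and 196 to 290, the lipid transporter gene Abca2 462 and 237 to 278, and the adaptor gene Tradd 405 and 231 to 280.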
